A study of Mus musculus with 6 samples.

Results

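The genes described here are 10 targets of the transcriptional coactivator YAP: Ctgf, Cyr61, Ankrd1, Amotl2, Crim1, Axl, Ajuba, F3, Nuak2 and Nt5e. They were taken by symbol from the deposited gene table and are 10 of its 24067 genes. They were picked as YAP targets raised by blebbistatin, with values of these same libraries in view. Their differences between the groups are therefore given as a description, with no test. The description "raised" held for 6 of the 10 in the sense that every treated library lay above every control, which was the case for 7.48% of the 11540 genes with a mean of at least 1 FPKM. It did not hold for Axl and Nt5e, and Ankrd1 was close to the limit of detection.

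The libraries were made from total RNA of E13 (embryonic day 13) submandibular gland of the ICR mouse strain, 3 under blebbistatin and 3 as controls. Blebbistatin inhibits myosin II, the motor that puts actin filaments under tension, by holding it in a state that binds actin weakly. The labels give no dose, duration or vehicle. The labels do not say whether the libraries of a group come from separate cultures or litters, so the spread behind each p-value may be technical.

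YAP and its relative TAZ carry no DNA-binding domain of their own and act on genes through TEAD factors, often beside AP-1 factors at the same enhancers. The kinases LATS1 and LATS2 of the Hippo pathway phosphorylate YAP and TAZ and keep them out of the nucleus. The pathway is known to respond to cell shape, spreading and tension in the actin cytoskeleton, and several YAP targets encode proteins that feed back on the pathway or signal to neighbouring cells.

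Values are FPKM (fragments scaled to transcript length and to all mapped fragments), so levels can be set side by side between genes. Depth as estimated from the value of 1 fragment was 27.8 to 28.5 M fragments (M, mega) in the blebbistatin libraries and 28.4 to 33.9 M in the controls. Epithelial markers were high in all libraries, with a summed level of 1243 to 1601 FPKM under blebbistatin and 1318 to 1652 FPKM in controls over 7 genes. The 10 mesenchymal markers summed to 21.7 to 24.03 FPKM under blebbistatin and 18.9 to 32.3 FPKM in controls, the highest of these in control replicate 1. Postn made up most of each sum except in control replicate 1. It was at 19.6, 14.9 and 12.4 FPKM in blebbistatin replicates 1 to 3 and at 10.7, 13.1 and 16.0 FPKM in control replicates 1 to 3. The excess in control replicate 1 thus lay in the other markers. The 7 endothelial markers summed to 0.80 to 0.96 FPKM under blebbistatin and 0.57 to 0.68 FPKM in controls. The labels name the gland as the tissue, while the series title names epithelial buds.

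The levels of the coactivators themselves overlapped between the groups. Yap1 stood at 82.6 to 89.7 FPKM in the 3 blebbistatin libraries and at 79.99 to 96.4 FPKM in the 3 controls, and Wwtr1, which encodes TAZ, at 17.5 to 19.7 FPKM under blebbistatin and 16.8 to 20.5 FPKM in controls. Neither passed the test over all genes (limma with Benjamini-Hochberg adjustment, adjusted p = 0.997 for Yap1 and 0.989 for Wwtr1).

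The stretch of DNA before the start of transcription was looked at first, since TEAD factors bind a short motif whose core reads GGAATG, or CATTCC on the other strand. RefSeq promoter entries on GRCm38.p6, the assembly that mm10 names, were found for 8 of the 10 genes. Those of Ctgf and Nuak2 are not in the table used. Within the 250 bases before the start, 6 of the 8 held the TEAD core on either strand, against 12.6% of 32851 promoter entries of the same length. The genes were listed as targets of YAP, which acts through TEAD factors, so this share describes the list and is not a result of these libraries. The AP-1 motif TGANTCA, which reads the same on the other strand, was found in 1 of the 8 and in 6.7% of all entries. The CArG box of serum response factor was found in 0 of the 8 and in 1.5% of all entries. These motifs were not found to overlap each other in the 8 entries. The 7 sequences with a match are shown 5′ to 3′ on the strand of the gene, with the motif in capitals.
Cyr61: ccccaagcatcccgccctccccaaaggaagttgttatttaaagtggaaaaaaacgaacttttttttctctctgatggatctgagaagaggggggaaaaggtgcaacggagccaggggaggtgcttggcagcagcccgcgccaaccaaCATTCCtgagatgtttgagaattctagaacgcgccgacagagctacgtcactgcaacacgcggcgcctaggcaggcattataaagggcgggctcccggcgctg
Amotl2: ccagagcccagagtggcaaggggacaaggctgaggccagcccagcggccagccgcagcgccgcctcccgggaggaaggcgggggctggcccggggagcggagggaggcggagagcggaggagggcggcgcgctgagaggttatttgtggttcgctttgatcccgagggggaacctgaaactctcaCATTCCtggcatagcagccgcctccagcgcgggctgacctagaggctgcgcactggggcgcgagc
Ajuba: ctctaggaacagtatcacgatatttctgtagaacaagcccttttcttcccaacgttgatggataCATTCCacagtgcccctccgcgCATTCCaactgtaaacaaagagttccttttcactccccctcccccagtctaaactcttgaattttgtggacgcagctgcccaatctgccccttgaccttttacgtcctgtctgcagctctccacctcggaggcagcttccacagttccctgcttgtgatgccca
Crim1: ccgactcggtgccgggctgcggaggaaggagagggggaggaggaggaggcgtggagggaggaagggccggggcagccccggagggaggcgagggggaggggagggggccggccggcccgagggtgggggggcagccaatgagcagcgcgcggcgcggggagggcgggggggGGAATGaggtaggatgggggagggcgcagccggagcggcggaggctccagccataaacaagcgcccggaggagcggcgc
F3: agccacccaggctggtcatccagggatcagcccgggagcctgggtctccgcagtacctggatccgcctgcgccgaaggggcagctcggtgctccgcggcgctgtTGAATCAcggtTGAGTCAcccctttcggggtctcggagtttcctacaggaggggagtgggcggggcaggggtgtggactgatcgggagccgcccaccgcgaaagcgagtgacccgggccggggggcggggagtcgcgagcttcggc
Axl: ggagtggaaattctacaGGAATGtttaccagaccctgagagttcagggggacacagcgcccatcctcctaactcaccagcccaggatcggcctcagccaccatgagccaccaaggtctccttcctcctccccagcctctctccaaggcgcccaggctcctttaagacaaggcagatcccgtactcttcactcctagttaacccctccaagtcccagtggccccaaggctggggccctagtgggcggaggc
Ankrd1: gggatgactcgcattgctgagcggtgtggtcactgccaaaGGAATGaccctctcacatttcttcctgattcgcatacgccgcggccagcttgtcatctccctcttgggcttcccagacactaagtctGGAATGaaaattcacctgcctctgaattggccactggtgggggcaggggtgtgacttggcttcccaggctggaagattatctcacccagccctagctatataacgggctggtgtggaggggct
The windows are chr3:145649986-145650235 (minus strand) for Cyr61, chr9:102717554-102717803 (plus) for Amotl2, chr14:54577662-54577911 (minus) for Ajuba, chr17:78199998-78200247 (plus) for Crim1, chr3:121723287-121723536 (plus) for F3, chr7:25788734-25788983 (minus) for Axl and chr19:36119845-36120094 (minus) for Ankrd1. The first base of the TEAD core lay 103 bases before the start in Cyr61, 65 in Amotl2, 79 in Crim1 and 233 in Axl. Ajuba had matches at 186 and 164 bases and Ankrd1 at 210 and 123 bases before the start. F3 had no TEAD core in this window and AP-1 motifs at 146 and 135 bases, and the window of Nt5e held none of the motifs searched. A match is a string of letters and not a measured binding site. Of the 6 genes with a TEAD core, 4 (Cyr61, Amotl2, Crim1, Ajuba) were among those whose groups did not overlap, whereas Axl and Ankrd1 were not. Without a core in the window, F3 was also apart between the groups and Nt5e was not. The genes were picked on this contrast, so no link between the core and the response is read from these counts.

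**Figure D1:**
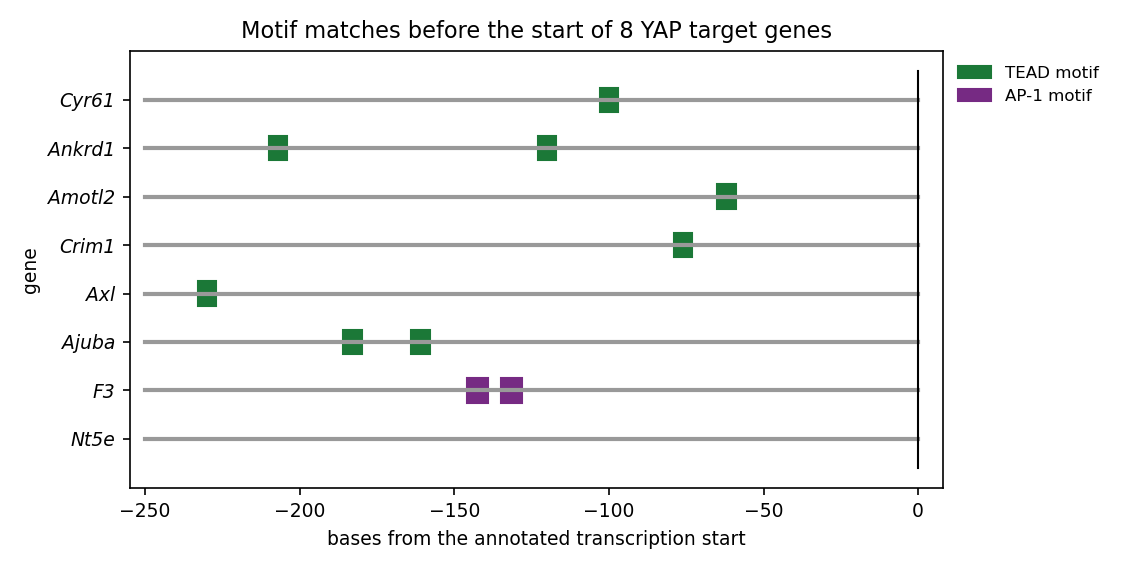
Position of motif matches (coloured boxes) in the 250 bases before the annotated transcription start of 8 YAP target genes. The horizontal axis gives bases from the start, which is at 0 on the right. Single TEAD cores lie at 103 bases in Cyr61, 65 in Amotl2, 79 in Crim1 and 233 in Axl, and F3 holds AP-1 motifs at 146 and 135 bases.

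Over all 11540 genes with a mean of at least 1 FPKM, 9 passed an adjusted p of 0.05 between blebbistatin and control (limma), which is 0.078% of those tested. Of these 4 were higher (0.0347%) and 5 lower (0.0433%). Leaving out 1 library gave 2 calls when it was blebbistatin replicate 1, 4 when it was blebbistatin replicate 2 and 13 when it was blebbistatin replicate 3. Among controls it gave 1 call without replicate 1, 2 without replicate 2 and 7 without replicate 3. The 6 YAP targets with no overlap between the groups were Cyr61, Ctgf, Crim1, Amotl2, Ajuba and F3, and since the genes were picked on that contrast their count is a property of the choice. The mean FPKM was higher under blebbistatin for 9 of the 10, with the untested Ankrd1 among them. The mean log2 value was higher for 8 of the 9 tested, in Axl by only 0.01, beside 55.2% of all tested genes. In the order of the difference in log2(FPKM + 1) among the 11540 genes, Cyr61 was at place 20, Crim1 at 44, Ctgf at 61, Amotl2 at 68, Ajuba at 165, F3 at 326 and Nuak2 at 555. Axl was at place 5983 and Nt5e at 10800.

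**Figure D2:**
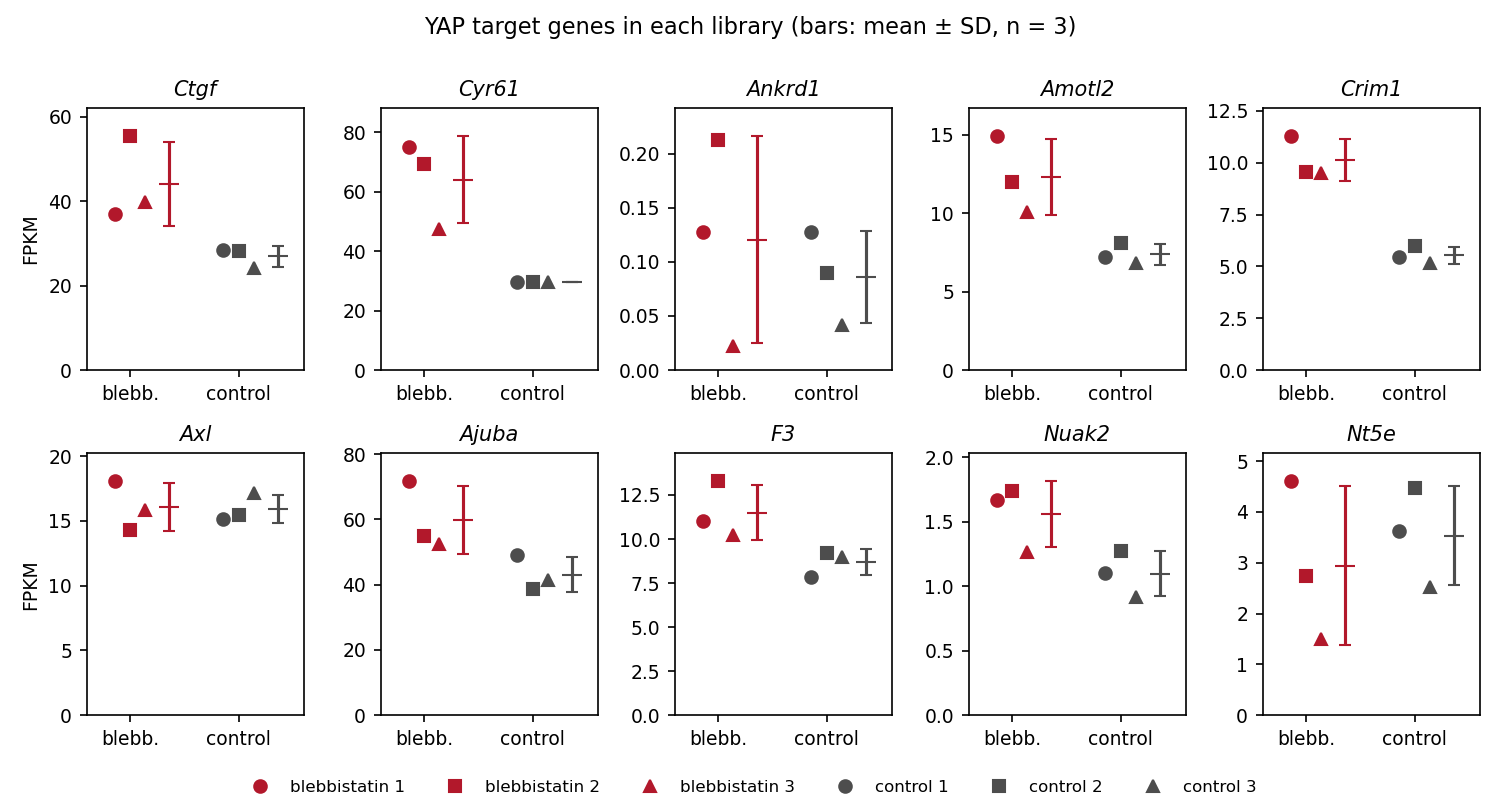
FPKM of each of the 10 YAP target genes in the 3 blebbistatin libraries (red) and the 3 controls (grey), with the mean and SD of each group beside the points. Each panel has its own vertical axis, which starts at 0. The groups are apart for Ctgf, Cyr61, Amotl2, Crim1, Ajuba and F3 and overlap for Ankrd1, Axl, Nuak2 and Nt5e.

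Cyr61 and Ctgf encode secreted matricellular proteins of the CCN family, which bind integrins and heparan sulfate, and they are the most used readouts of YAP activity. Cyr61 (mm10 chromosome 3, 145646971 to 145649985, minus strand, 5 exons) was at 75.1, 69.3 and 47.4 FPKM in blebbistatin replicates 1 to 3 and at 29.5, 29.7 and 29.5 FPKM in control replicates 1 to 3. All 3 treated libraries were above the controls, which lay almost on one value. The mean was 63.9 ± 14.6 FPKM under blebbistatin and 29.6 ± 0.11 FPKM in controls (SD, n = 3), a ratio of 2.16, and the difference in log2(FPKM + 1) was 1.06 ± 0.16 (SE). With 2665 to 4316 estimated fragments per treated library and 1700 to 2042 per control, counting alone gives a spread of 2.34% in the controls, more than the 0.375% observed there, and 1.65% under blebbistatin, where 22.9% was observed. In bulk RNA, a change in the number of cells that express a gene and a change in its RNA per cell cannot be told apart. This holds for every gene described here.

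Ctgf (chromosome 10, 24595442 to 24598682, plus strand, 5 exons) was at 37.0, 55.4 and 39.8 FPKM under blebbistatin and at 28.5, 28.3 and 24.1 FPKM in controls. All 3 treated libraries were above the highest control, with replicate 2 far above the other treated ones. The mean was 44.1 ± 9.90 FPKM under blebbistatin and 27.0 ± 2.47 FPKM in controls (SD, n = 3), a ratio of 1.63, and the log2 difference was 0.67 ± 0.15 (SE). Without blebbistatin replicate 2 the log2 difference was 0.50. The 2 CCN genes did not follow each other within the treated group. Cyr61 exceeded Ctgf by a factor of 2.03, 1.25 and 1.19 in blebbistatin replicates 1 to 3, against 1.03, 1.051 and 1.22 in the controls, so that only blebbistatin replicate 1 was well outside the range of the controls. The other CCN genes were low: Nov, Wisp2 and Wisp3 were at or under 0.194 FPKM in every library, and Wisp1 was at 0.84 to 1.01 FPKM under blebbistatin and 0.63 to 0.82 FPKM in controls, with no overlap but under the limit for testing.

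Amotl2, Ajuba and Nuak2 encode proteins that act back on the Hippo pathway or on the actin cytoskeleton. Amotl2 is an angiomotin, a junctional scaffold that binds YAP and actin. It lies on chromosome 9 from 102717804 to 102733417 on the plus strand with 10 exons. It was at 14.9, 12.0 and 10.1 FPKM under blebbistatin and at 7.21, 8.12 and 6.81 FPKM in controls. The groups did not overlap, and the mean of 12.3 ± 2.42 FPKM under blebbistatin was 1.67 times the 7.38 ± 0.67 FPKM of controls (SD, n = 3; log2 difference 0.66 ± 0.14, SE). Its paralogue Amotl1 was more abundant, with 60.4 to 74.9 FPKM under blebbistatin and 56.9 to 63.0 FPKM in controls, and Amot was at 6.75 to 8.49 FPKM under blebbistatin and 6.27 to 9.98 FPKM in controls. For both paralogues the groups overlapped and the test was not passed (limma adjusted p = 0.811 for Amotl1 and 0.999 for Amot).

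Ajuba is a LIM-domain adaptor at adherens junctions that binds LATS kinases. Its locus is on chromosome 14 from 54567469 to 54577661 on the minus strand with 8 exons. It was at 71.6, 54.8 and 52.5 FPKM under blebbistatin and at 49.1, 38.6 and 41.5 FPKM in controls. The gap between the groups was narrow, and the mean was 59.7 ± 10.4 FPKM under blebbistatin and 43.0 ± 5.44 FPKM in controls (SD, n = 3), a ratio of 1.39 (log2 difference 0.46 ± 0.14, SE). Without blebbistatin replicate 1 the log2 difference was 0.32. Its relatives Limd1 (17.2 to 22.3 FPKM under blebbistatin and 17.7 to 21.2 FPKM in controls) and Wtip (20.9 to 25.9 FPKM under blebbistatin and 18.8 to 25.5 FPKM in controls) overlapped between the groups and did not pass (limma adjusted p = 0.999 for Limd1 and 0.971 for Wtip).

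Nuak2 is a kinase related to AMPK that acts on actomyosin through the myosin phosphatase. The gene is on chromosome 1 from 132316125 to 132333488 on the plus strand. It was at 1.67, 1.74 and 1.27 FPKM under blebbistatin and at 1.10, 1.27 and 0.918 FPKM in controls. Blebbistatin replicate 3 lay just below control replicate 2, so the groups touched. The ratio of means was 1.42, at 110 to 155 estimated fragments per treated library and 83 to 135 per control. The log2(FPKM + 1) difference of 0.29 understates the change at this level, and with a pseudocount of 0.1 it was 0.47. Of its 2 annotated transcripts the one of 3108 nt held 99.99% ± 0.016 of the summed FPKM under blebbistatin and 93.5% ± 6.99 in controls (SD, n = 3). The longer transcript, of 3132 nt, reached 13.9% in control replicate 1 and 5.48% in control replicate 2. It held 0.002% in control replicate 3 and at most 0.03% in the treated libraries. At the fragment numbers above this split is an uncertain estimate, and no difference in transcript use is read from it. Its relative Nuak1 was at 4.64 to 7.84 FPKM under blebbistatin and 4.89 to 7.28 FPKM in controls.

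Crim1, F3, Axl and Nt5e encode proteins of the cell surface, and they split into a pair that was higher and a pair that was not. Crim1 is a transmembrane protein with cysteine-rich repeats that binds BMPs. It lies on chromosome 17 from 78200248 to 78376592 on the plus strand with 17 exons. It was at 11.3, 9.55 and 9.51 FPKM under blebbistatin and at 5.46, 5.98 and 5.18 FPKM in controls. The groups did not overlap, with a mean of 10.1 ± 1.01 FPKM under blebbistatin and 5.54 ± 0.40 FPKM in controls (SD, n = 3), a ratio of 1.82 (log2 difference 0.76 ± 0.10, SE). Of its exonic bases, 123 overlap exons of Fez2 on the opposite strand, and the labels do not say whether the reads carry strand. Fez2 was at 5.37 ± 0.22 FPKM under blebbistatin and 4.69 ± 0.52 FPKM in controls. The BMP ligand Bmp7 was at 40.5 to 43.5 FPKM under blebbistatin and 43.8 to 50.1 FPKM in controls (limma adjusted p = 0.678), and Bmp2 and Bmp4 were at or under 0.413 FPKM in every library.

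F3 encodes tissue factor, the receptor of coagulation factor VII. Its locus is on chromosome 3 from 121723537 to 121735052 on the plus strand with 6 exons. It was at 11.02, 13.3 and 10.2 FPKM under blebbistatin and at 7.84, 9.22 and 8.998 FPKM in controls. The groups did not overlap, and the mean was 11.5 ± 1.58 FPKM under blebbistatin and 8.69 ± 0.74 FPKM in controls (SD, n = 3), a ratio of 1.32 (log2 difference 0.36 ± 0.11, SE). F7 and F10, the factors that tissue factor brings together, were at or under 0.0397 FPKM in every library. Tfpi, its inhibitor, was at 4.21 to 6.31 FPKM under blebbistatin and 5.45 to 6.23 FPKM in controls (limma adjusted p = 0.987).

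Axl is a receptor tyrosine kinase of the TAM family whose ligand is Gas6. The gene is on chromosome 7 from 25756500 to 25788733 on the minus strand, with 3 annotated transcripts of 18 to 20 exons. It was at 18.0, 14.3 and 15.9 FPKM under blebbistatin and at 15.2, 15.4 and 17.2 FPKM in controls. The groups overlapped across their whole range, with a ratio of means of 1.01 and a log2 difference of 0.01 ± 0.10 (SE), a value whose sign is not settled. It ran from -0.071 to 0.085 when 1 library was left out, was negative without blebbistatin replicate 1, control replicate 1 or control replicate 2, and was -0.001 with median-of-ratios scaling and -0.0049 with quantile normalization. The transcript of 5084 nt held 68.1% ± 7.37 of the summed FPKM under blebbistatin and 73.3% ± 9.33 in controls, and that of 5057 nt held 23.4% ± 5.84 under blebbistatin and 19.2% ± 6.81 in controls (SD, n = 3). Replicate 3 had the lowest share of the 5084 nt transcript in each group, 60.1% under blebbistatin and 62.6% in the control. Gas6 was at 14.9, 16.7 and 13.7 FPKM under blebbistatin and at 29.9, 17.5 and 16.7 FPKM in controls, where control replicate 1 stood apart (limma log2 difference -0.43 ± 0.20 (SE), adjusted p = 0.600). Without that library the difference was -0.17, and with array weights it was -0.25. Of the other TAM receptors, Tyro3 was at 18.5 to 23.5 FPKM under blebbistatin and 17.8 to 21.3 FPKM in controls, and Mertk was lower without overlap but under the limit for testing, at 0.763 to 0.828 FPKM under blebbistatin and 0.896 to 1.07 FPKM in controls.

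**Figure D3:**
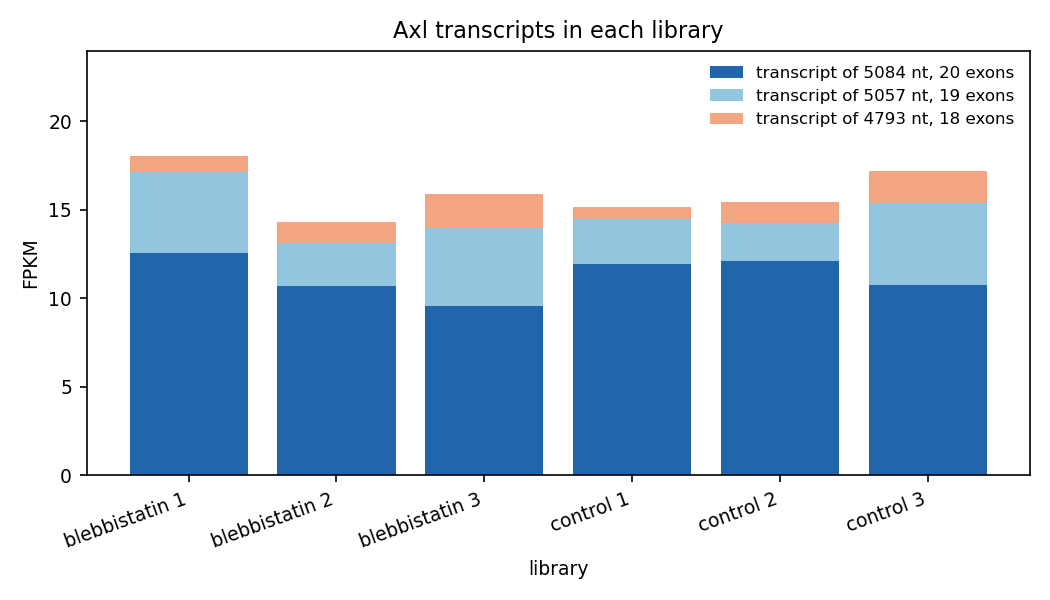
FPKM of the 3 annotated Axl transcripts, stacked, in each blebbistatin and control library. The totals run from 14.3 to 18.0 FPKM under blebbistatin and from 15.2 to 17.2 FPKM in controls, and the transcript of 5084 nt is the main one in every library.

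Nt5e encodes CD73, the surface enzyme that makes adenosine from AMP. It lies on chromosome 9 from 88327609 to 88372089 on the plus strand with 9 exons. It was at 4.602, 2.74 and 1.49 FPKM under blebbistatin and at 3.62, 4.46 and 2.52 FPKM in controls. The treated libraries held both the highest and the lowest value of all 6. The mean was lower, 2.94 ± 1.56 FPKM under blebbistatin and 3.53 ± 0.98 FPKM in controls (SD, n = 3; log2 difference -0.25 ± 0.28, SE), and 1 library could move it. Leaving out blebbistatin replicate 3 gave a log2 difference of 0.037 and leaving out blebbistatin replicate 1 gave -0.55. Among controls, leaving out replicate 2 gave -0.11 and leaving out replicate 3 gave -0.43. Of the genes around extracellular adenosine, Entpd3, which breaks down ATP, was at 2.03 to 2.71 FPKM under blebbistatin and 2.77 to 3.54 FPKM in controls. It did not pass the test (limma log2 difference -0.36 ± 0.12, adjusted p = 0.347).

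Ankrd1, a nuclear ankyrin-repeat protein of stretched muscle and a common YAP readout in other cells, was barely detected. Its locus is on chromosome 19 from 36111965 to 36119844 on the minus strand with 9 exons. It was at 0.128, 0.212 and 0.0217 FPKM under blebbistatin and at 0.127, 0.0894 and 0.0421 FPKM in controls. This corresponds to 6, 11 and 1 estimated fragments under blebbistatin and 6, 5 and 2 in controls, so a difference was not detectable at this depth. It was the 1 gene of the 10 under the limit for testing.

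The treated libraries were not alike in these genes. Blebbistatin replicate 3 had the lowest value of the 3 treated libraries for 8 of the 10 genes, all but Ctgf and Axl. Replicate 1 had the highest for 6 and replicate 2 for 4. The mean deviation of the 9 tested genes from their 6-library means, on the log2(FPKM + 1) scale, was 0.39, 0.27 and 0.01 in blebbistatin replicates 1 to 3 and -0.21, -0.16 and -0.30 in controls. In the 6 genes whose groups did not overlap it was 0.44, 0.41 and 0.14 under blebbistatin and -0.31, -0.29 and -0.39 in controls. Summed epithelial markers were lowest in blebbistatin replicate 3 (1243 FPKM) and control replicate 3 (1318 FPKM), and the part of this in the result was not tested. The 6 genes were apart between the groups without any 1 of the 6 libraries, and without blebbistatin replicate 3 Nuak2 and Ankrd1 were apart as well. For Ankrd1 this rests on 0.1278 FPKM in blebbistatin replicate 1 against 0.1272 FPKM in control replicate 1, each 6 estimated fragments.

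**Figure D4:**
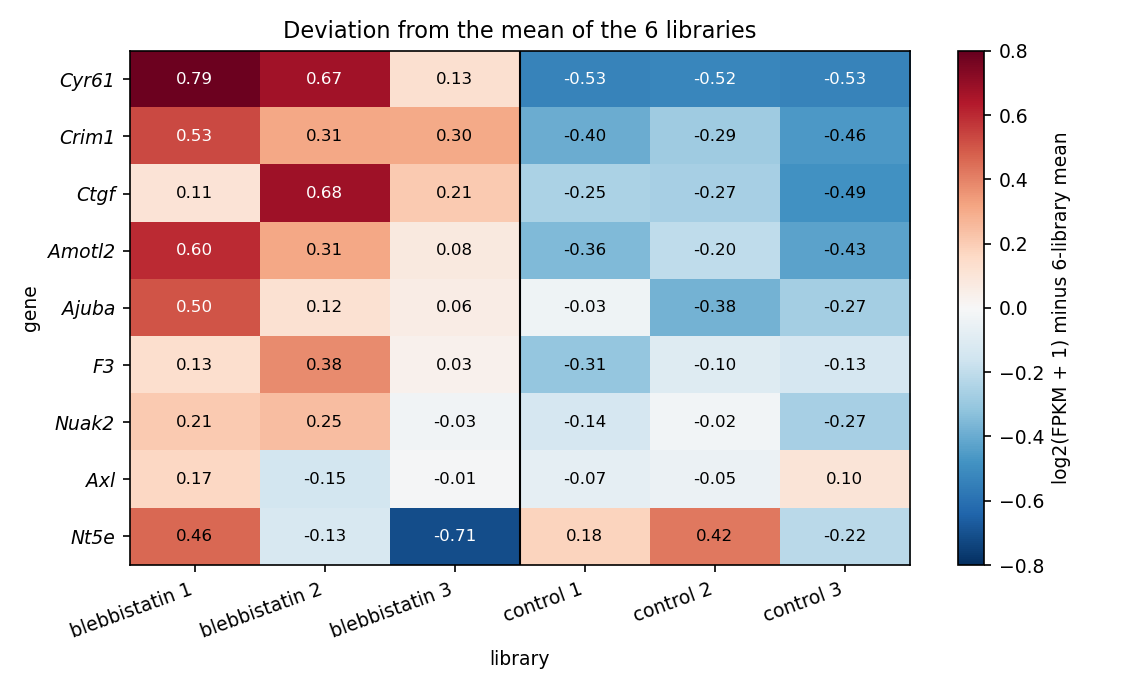
Value of log2(FPKM + 1) less the 6-library mean for the 9 YAP target genes with a mean of at least 1 FPKM, in blebbistatin libraries (left of the line) and controls (right). Cyr61 runs from 0.79 to 0.13 under blebbistatin and stays between -0.52 and -0.53 in controls, whereas Nt5e and Axl show no such division.

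Of all other tested genes, the 6 whose deviations lay nearest to the mean of the 9 YAP targets were Prr5l, Nfkb1, Palm2, Lats2, Trp53inp1 and Slc19a2, with a mean absolute difference over the 6 libraries of 0.0276 to 0.0495 on the log2 scale, against a median of 0.23 over all tested genes. The YAP targets themselves lay farther from their own mean, from 0.0798 for Nuak2 to 0.307 for Cyr61 and 0.373 for Nt5e, so that mean is not a profile that each of them follows. Lats2, the Hippo kinase that phosphorylates YAP and is itself a known YAP target, was at 12.0, 9.90 and 9.12 FPKM under blebbistatin and at 7.55, 7.81 and 7.43 FPKM in controls. Nfkb1, a subunit of NF-kB, was at 31.3, 27.7 and 24.97 FPKM under blebbistatin and at 20.8, 21.2 and 20.1 FPKM in controls. This likeness is a description of these 6 libraries.

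A compact signature of YAP and TAZ targets in use across cancers holds all of the 10 genes but Ajuba. Of its other 13 genes, 11 were tested, 7 had a higher mean and 4 a lower one under blebbistatin, and 0 passed (limma). Of all tested genes 55.2% had a higher mean and 0.078% passed. At an unadjusted p under 0.05 there were 2 higher and 1 lower, beside 4.46% and 4.9% of all tested genes. The groups were apart for 3 higher genes (Lats2, Arhgef17 and Rbms3) and 1 lower gene (Dock5), beside 7.48% and 6.8% of all tested genes. The median log2 difference was 0.14, beside 0.01 over all genes tested. Dock5, an activator of Rac, was at 1.84, 2.21 and 2.199 FPKM under blebbistatin and at 2.68, 3.56 and 3.06 FPKM in controls (log2 difference -0.41 ± 0.12, limma adjusted p = 0.244). Rbms3, an RNA-binding protein, had 12.97 ± 0.47 FPKM under blebbistatin and 10.6 ± 1.04 FPKM in controls (SD, n = 3), with a log2 difference of 0.27 ± 0.09 (limma adjusted p = 0.350). Asap1, a regulator of ARF GTPases, had 12.5 ± 1.15 FPKM under blebbistatin and 10.4 ± 1.40 FPKM in controls (limma adjusted p = 0.551). These 13 are what was left after the 10 had been taken from the list with values in view.

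A broader list of 48 further genes reported to respond to YAP had 39 tested members, of which 30 had a higher mean and 9 a lower one, and 0 passed (limma). A higher mean was found for 55.2% of all tested genes. At an unadjusted p under 0.05 there were 15 higher and 3 lower, beside 4.46% and 4.9% of all tested genes. The groups were apart for 16 higher and 3 lower genes, beside 7.48% and 6.8% of all tested genes. This list too was chosen with earlier results of these data known, so its counts are a description and not a test of YAP targets. The median log2 difference was 0.23. Among the 16 higher genes were Birc5, Cdc20, Ect2, Hmmr, Top2a, Tk1 and Dut, which act in cell division or DNA synthesis. Some of these were lowest in control replicate 1. Top2a was at 38.7, 68.3 and 59.2 FPKM in control replicates 1 to 3 and at 68.5 to 79.2 FPKM under blebbistatin. The part of dividing cells in this count was not tested. The 3 lower genes, named after their values were seen, were Sdpr, Etv5 and Itgb5. Sdpr, which encodes a protein of caveolae, was at 0.785, 1.93 and 1.37 FPKM under blebbistatin and at 2.45, 5.87 and 3.06 FPKM in controls (log2 difference -0.98 ± 0.27, limma adjusted p = 0.224). Etv5, an ETS transcription factor, was at 132, 185 and 174 FPKM under blebbistatin and at 211, 241 and 202 FPKM in controls (log2 difference -0.43 ± 0.14, limma adjusted p = 0.342). The log2 difference of Itgb5, an integrin subunit, was -0.31. Agfg2, a protein related to Arf GTPase regulators, had 6.996 ± 0.22 FPKM under blebbistatin and 5.17 ± 0.15 FPKM in controls (log2 difference 0.37 ± 0.08, limma adjusted p = 0.139). Dlc1, a GTPase-activating protein, had 1.56 ± 0.052 FPKM under blebbistatin and 0.94 ± 0.037 FPKM in controls (log2 difference 0.40 ± 0.10, limma adjusted p = 0.196). Emp2, a tetraspan membrane protein, had 11.9 ± 1.52 FPKM under blebbistatin and 8.79 ± 0.60 FPKM in controls (limma adjusted p = 0.224). Birc5, the mitotic protein survivin, had 77.4 ± 4.57 FPKM under blebbistatin and 58.5 ± 6.73 FPKM in controls (limma adjusted p = 0.217).

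Of 29 genes of the Hippo pathway and its TEAD partners, 27 were tested and 0 passed (limma), with 2 higher and 0 lower at an unadjusted p under 0.05, beside 4.46% and 4.9% of all tested genes, and a median log2 difference of 0.06. The 2 were Tead1 and Lats2. They were also the 2 of the 27 tested genes whose groups did not overlap, a share near the 7.48% of all tested genes. Vgll1 and Vgll3, on the same list, were higher with no overlap but under the limit for testing. Tead1, a DNA-binding partner of YAP, was at 11.8, 10.4 and 10.4 FPKM under blebbistatin and at 6.53, 8.14 and 7.02 FPKM in controls. Its mean was 10.9 ± 0.84 FPKM under blebbistatin and 7.23 ± 0.82 FPKM in controls (SD, n = 3), a log2 difference of 0.53 ± 0.10 (limma adjusted p = 0.101). Tead2, the TEAD gene of highest level, was at 111 to 135 FPKM under blebbistatin and 110 to 135 FPKM in controls. The log2 difference of Lats2 was 0.39 ± 0.11 (limma adjusted p = 0.224), and Wwc2, a scaffold that activates LATS kinases, had 0.19 ± 0.10 (adjusted p = 0.676), or 0.13 without blebbistatin replicate 1.

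**Figure D5:**
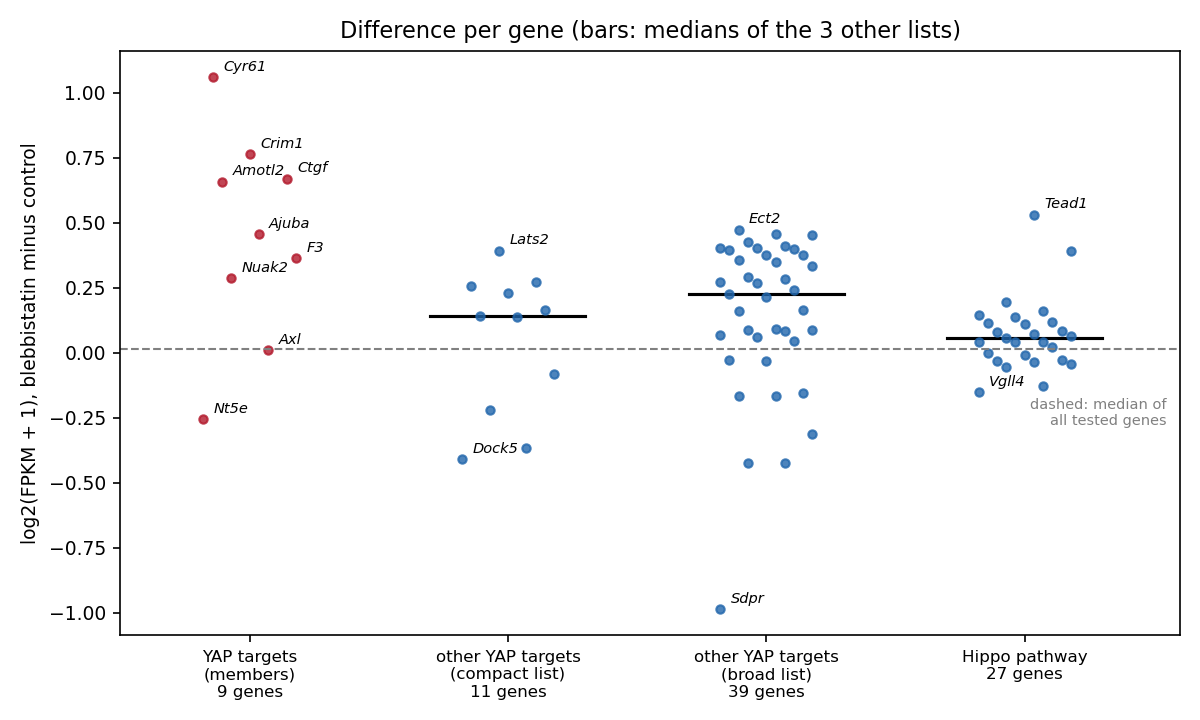
Difference in log2(FPKM + 1), blebbistatin minus control, for the 9 tested YAP targets (red) and for the tested genes of 3 further lists (blue). Bars give the medians of these 3 lists, 0.14, 0.23 and 0.06, and the dashed line the median of all tested genes, 0.01. Cyr61 lies highest at 1.06 and Sdpr lowest at -0.98.

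Of 8 AP-1 genes 6 were tested and 0 passed, with 0 at an unadjusted p under 0.05 (limma), beside 4.46% higher and 4.9% lower of all tested genes. Fos was at 3.92 to 6.50 FPKM under blebbistatin and 3.48 to 4.68 FPKM in controls (log2 difference 0.34 ± 0.18, limma adjusted p = 0.645). When 1 library was left out the difference ran from 0.24 without blebbistatin replicate 1 (limma adjusted p = 0.91) to 0.54 without blebbistatin replicate 3 (limma adjusted p = 0.224). Among 7 receptors that CCN proteins bind, 0 passed, with 0 higher and 2 lower at an unadjusted p under 0.05 (limma), beside 4.46% higher and 4.9% lower of all tested genes. These were the integrin subunits Itgb5, with 55.3 ± 1.37 FPKM under blebbistatin and 69.1 ± 7.16 FPKM in controls (limma adjusted p = 0.294), and Itgb3, with 0.41, 1.21 and 1.64 FPKM under blebbistatin and 1.52, 2.69 and 3.14 FPKM in controls (limma adjusted p = 0.366). The laminin receptor subunit Itga6 had 92.6 ± 3.32 FPKM under blebbistatin and 77.4 ± 12.0 FPKM in controls (log2 difference 0.27, limma adjusted p = 0.575), and the difference was 0.14 without control replicate 1. Over 50 partner and family genes together, counted without those on the Hippo and broad lists, 26 were tested, 0 passed, and 0 higher and 2 lower had an unadjusted p under 0.05 (limma, beside the same shares of all tested genes), with a median log2 difference of -0.03.

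Markers of other cell types gave these values beside the YAP targets. Of 10 mesenchymal markers 5 had a mean of at least 1 FPKM, and the groups overlapped for each of these. The means of Col1a1, Col1a2 and Col3a1 were lower under blebbistatin (ratios 0.481, 0.527 and 0.522) and those of Dcn and Postn higher (ratios 1.25 and 1.18). The low ratios of the collagens rest on control replicate 1. Col1a1 was at 3.06, 0.853 and 0.843 FPKM in control replicates 1 to 3 and at 0.588 to 1.02 FPKM under blebbistatin. Col1a2 was at 3.35, 0.866 and 1.09 FPKM in controls and 0.481 to 1.55 FPKM under blebbistatin. Col3a1 was at 7.26, 1.21 and 0.971 FPKM in controls and 0.806 to 2.18 FPKM under blebbistatin. Pdgfra, under that mean, was lower with no overlap, at 0.418 to 0.558 FPKM under blebbistatin and 0.626 to 1.03 FPKM in controls. Of 7 endothelial markers 0 reached that mean. Pecam1 and Tek were higher in all 3 treated libraries at or under 0.553 FPKM, while the other 5 (Cdh5, Kdr, Tie1, Cldn5 and Emcn) had lower means under blebbistatin and were at or under 0.0541 FPKM in every library. Of these Cdh5 was listed at 0 in all treated libraries and at 0.0148 to 0.0441 FPKM in controls. Of 6 neuronal markers 0 and of 5 Schwann cell markers 2 reached a mean of 1 FPKM. Those 2, Sox10 and Erbb3, are also genes of the gland epithelium and were lower in all treated libraries, while Foxd3 was at or under 0.0314 FPKM in every library. Of 5 leukocyte and 6 muscle markers that the authors measured, 2 of each list reached that mean, and their sums overlapped between the groups, as did those of the neuronal list. The part of these markers in the values of the YAP targets was not tested.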

How the data were processed

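RNA-seq libraries of 3 blebbistatin and 3 control samples of E13 mouse submandibular gland were grouped by their titles. The authors deposited FPKM per gene and per RefSeq transcript on mm10 with the annotation they used. The submitters' processing notes name TopHat2 2.0.13, Bowtie2 2.2.3 and Cufflinks 2.2.1, with no settings. Gene values sum those of the transcripts. No counts were used, and fragments per gene were estimated from the value of 1 fragment in long genes with 1 transcript, where 80.8% to 88.1% of values per library came within 0.1 of a whole number. FPKM are relative to all mapped fragments, so a change in abundant genes shifts every other gene.

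Genes with a mean of at least 1 FPKM over the 6 libraries (11540 of 24067) were tested with limma 3.58.1 (R 4.3.3) on log2(FPKM + 1), with a trended prior and Benjamini-Hochberg adjustment over all of them at 0.05. Such differences understate the change of low genes. The procedure was tested on simulated data, with changes larger than most differences described here. Its power for smaller changes was not measured, so a gene that did not pass may still differ. The YAP targets and all gene lists were chosen with earlier results of these data known. The YAP targets therefore have no test, and the SE beside their differences comes from the same limma fit. Lists are described by counts and medians. Named genes were all 10 YAP targets, up to 4 genes per list by smallest unadjusted p, and the 6 genes with the nearest profile. Any other named gene was chosen after its values were seen. Alternatives were no filter, a mean of at least 5 FPKM, a pseudocount of 0.1, median-of-ratios and quantile scaling, array weights, a replicate block and leaving out each library. Promoter sequences are RefSeq entries on GRCm38.p6, matched by gene number. Some marker genes are not reported here.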

Additional observations from a re-analysis of the deposited data

How the results depend on the processing

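The number of genes called over the whole table, 9 as reported, was 1 over all genes above 0, 27 over genes of at least 5 FPKM, 2 with median-of-ratios scaling, 14 with quantile normalization, 57 with array weights, and between 1 (without control replicate 1) and 13 (without blebbistatin replicate 3) when 1 library was left out. With the replicate number as a block it was 144 (53 higher, 91 lower), and the block gave 1 call on the broad YAP list (Sdpr, lower) and 1 among partner and family genes (Itgb3, lower, limma adjusted p = 0.0357, against 0.204 to 0.702 under the other alternatives). The numbers were not treated as pairing, since deviations of same-numbered libraries correlated at 0.182, 0.094 and 0.253, although each library correlated best with its own number, a hint from the data and not the design. The compact YAP list and the Hippo list had 0 calls under each alternative.

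The 6 YAP targets with no overlap between the groups kept it under both scalings, a pseudocount of 0.1 and without any 1 library, and the count was 7 or 8 where Nuak2, or Nuak2 and Ankrd1, joined them. With a pseudocount of 0.1 the log2 difference was 0.47 for Nuak2 and 0.17 for Ankrd1. The causes were not tested. Depth limits Ankrd1, at 1 to 11 estimated fragments per library.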

Other observations

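Among the Vestigial-like genes, whose proteins bind TEAD factors as YAP does, Vgll1 and Vgll3 were singled out after their values were seen. Vgll3 was at 0.993, 0.967 and 0.588 FPKM under blebbistatin and at 0.288, 0.456 and 0.347 FPKM in controls, which is 94, 92 and 54 estimated fragments under blebbistatin and 27, 51 and 33 in controls. Vgll1 was at 1.31, 0.975 and 0.481 FPKM under blebbistatin and at 0.434, 0.453 and 0.400 FPKM in controls, or 44, 33 and 16 estimated fragments under blebbistatin and 15, 18 and 14 in controls. For both genes every treated library was above every control, with blebbistatin replicate 3 the lowest of the treated ones, and both had a mean under 1 FPKM and were not tested. Vgll4 was far more abundant, at 33.7 to 51.1 FPKM under blebbistatin and 40.6 to 50.2 FPKM in controls, and its groups overlapped.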
